A study of Homo sapiens with 20 samples.

Results

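Heat shock chaperones are described here by 10 genes, chosen by name: HSPA1A, HSPA1B, HSPA5, HSPA8, HSP90AA1, HSP90AB1, HSPH1, DNAJB1, HSPD1 and HSPE1. They are 10 of the 55694 gene symbols that had a transcript in the files. Their RNA was followed in human HEK293 cells, an embryonic kidney line, after knockdown of DICER1, AGO2 or DROSHA, with the question whether knockdown or plasmid transfection went with a stress response. mRNA-seq covered 3 wt samples of HEK293T cells and 3 shDicer samples of the line labelled HEK293 2B, which carries an inducible short hairpin (sh)RNA against DICER1. All 6 were kept in 3 µg/ml doxycycline for 7 days. RNA bound to chromatin (chrRNA-seq) covered 2 wt, 2 shDicer, 2 shAgo2 and 2 DroshaKD samples, all labelled HEK293. The shDicer and shAgo2 lines carry inducible hairpins and had 3 µg/ml doxycycline for 72 h, whereas the DROSHA hairpin was brought in by plasmid transfection. Whether the chromatin wt or DroshaKD cells had doxycycline, and whether the wt cells had a mock transfection, is not given in the sources used here. No sample with a scrambled hairpin is among those with files, and the shDicer and shAgo2 lines are recombinant lines other than the wt cells, so the hairpin cannot be told apart from the line that carries it.

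Chaperones bind unfolded proteins and help them fold. HSP70 proteins work with J-domain partners, which bring clients and drive ATP use, and with nucleotide exchange factors such as HSP110, while HSP90 acts later on kinases, receptors and other clients. Heat or misfolded protein in the cytosol activates heat shock factor 1 (HSF1), which binds alternating GAA and TTC units called heat shock elements. Unfolded protein in the endoplasmic reticulum (ER) acts through another element. HSPA1A and HSPA1B are the stress-inducible HSP70 genes, and HSPH1 and DNAJB1 encode an HSP110 and a J-domain partner that are also induced by heat. HSPA8 is the constitutive HSP70 of the cytosol and HSPA5 (BiP) that of the ER. HSP90AA1 and HSP90AB1 encode the inducible and the constitutive cytosolic HSP90, and HSPD1 and HSPE1 the mitochondrial chaperonin HSP60 and its lid HSP10.

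The promoter windows of the members differ in sequence. In RefSeq (GRCh38.p14), windows of 250 bases before to 50 bases after each start site were searched on both strands for 2 adjoining units (GAANNTTC or TTCNNGAA), for 3 adjoining units (GAANNTTCNNGAA or TTCNNGAANNTTC) and for the ER stress element, CCAAT and CCACG with 9 bases between. A match of 3 units also counts as overlapping matches of 2. Matches of 2 units occurred in 13.5% of 35116 promoter windows, matches of 3 units in 0.49% and the ER stress element in 0.0769%. A window of HSPA8, HSP90AA1, HSP90AB1 and HSPD1 held 3 units, HSPA1A, HSPA1B and DNAJB1 held only 2, HSPA5 held the ER stress element, and HSPH1 and HSPE1 held none of these letters. The sites below are written 5′ to 3′ on the strand of the gene, with the matched element in capitals and 5 bases on each side.
HSPA1A: ccctgGAATATTCccgac
HSPA5: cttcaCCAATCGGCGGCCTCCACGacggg
HSPA8: gccccTTCTGGAAGGTTCtaaga
HSP90AA1: ggttcTTCCGGAAGGTTCgggag
HSP90AB1: gcaggTTCTGGAAGATTCatggg
HSPD1: gcattTTCTGGAAAGTTCtggaa
They lie at chr6:31815432-31815449 (+) for HSPA1A, chr9:125241386-125241414 (-) for HSPA5, chr11:123062174-123062196 (-) for HSPA8, chr14:102087115-102087137 (-) for HSP90AA1, chr6:44247773-44247795 (+) for HSP90AB1 and chr2:197500068-197500090 (-) for HSPD1. All 6 are upstream of an annotated start site. The HSPE1 window begins at chr2:197500129 (+), so the HSPD1 site lies just upstream of that window and was not counted for HSPE1. The HSPA1B site has the same letters as the HSPA1A site. A match describes the letters of the window and is not evidence of binding.

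The depth was 10216430 to 17215978 estimated counts a sample in mRNA-seq and 17484067 to 21553760 in chrRNA-seq, and a level of 3 counts, taken as the floor, corresponds to 0.139 to 0.294 CPM, the count scaled to library size. The floor covers counting error only. DICER1 RNA was 232 to 257 CPM in mRNA-seq wt and 80.6 to 94.4 CPM in shDicer, a log2 fold change of -1.49 ± 0.08 (SE, edgeR adjusted p = 1.23e-07). On chromatin, AGO2 RNA fell in shAgo2 (log2 fold change -0.62 ± 0.08, edgeR adjusted p = 8.51e-05). DICER1 in shDicer (-0.18 ± 0.09, edgeR adjusted p = 0.162) and DROSHA in DroshaKD (0.07 ± 0.08, edgeR adjusted p = 0.696) did not pass, so these libraries are named by their labels. Chromatin values do not measure steady-state RNA or protein. The paper tested the former by qRT-PCR in its chrRNA-seq samples, and describes its western blots as showing that each knockdown succeeded. DICER1 was called higher in shAgo2 (0.78 ± 0.09, edgeR adjusted p = 3.39e-05), with 204 and 214 CPM against 119 and 124 in wt. The 8 genes taken as markers of HEK293 (NEFL, NEFM, INA, ENO2, VIM, KRT8, KRT18 and LIN28B) were detected in every group, and their sum was 657 to 742 CPM in mRNA-seq wt, 1090 to 1510 in shDicer, and on chromatin 653 to 716 in wt, 447 to 607 in shDicer, 471 to 525 in shAgo2 and 383 to 494 in DroshaKD. VIM was the largest part of each chromatin sum, with 511 and 573 CPM in wt, 158 and 224 in shDicer, 215 and 254 in shAgo2 and 359 and 262 in DroshaKD. The 10 markers of other cell types summed to 2.6 to 4.4 CPM in mRNA-seq wt and 11.8 to 14.5 in shDicer, and on chromatin to 69.3 to 72.3 in wt, 69.4 to 72 in shDicer, 82.5 to 84.8 in shAgo2 and 74.9 to 75.3 in DroshaKD. CD3E and HBB were at 0 in mRNA-seq wt, and CD3E, HBB and MYH7 in chromatin wt. Of these 10 markers 2 were tested in mRNA-seq and 1 was called. This was HBB, higher at 9.01 to 11.9 CPM in shDicer (edgeR adjusted p = 5.39e-07). Of the 8 HEK293 markers, 4 were called higher and 2 lower in mRNA-seq shDicer. On chromatin 5 and 3 were called in shDicer, 4 and 3 in shAgo2 and 1 and 3 in DroshaKD. Of all genes 15.6% were higher and 14.3% lower in mRNA-seq, and 11.2% and 10.7% in chromatin shDicer. The shares were 12.6% and 12.3% in shAgo2 and 1.25% and 2.31% in DroshaKD. NEFL had 13.9 to 18.3 CPM in mRNA-seq wt and 297 to 756 in shDicer. NEFM went the other way, from 6.05 to 6.45 CPM in wt to 0.238 to 0.548 in shDicer. The part of the markers in the chaperone results was not tested. Since these are bulk samples, a change in the share of cells and a change in RNA per cell cannot be told apart, and p-values measure only the spread between these samples, which the labels do not say to be separate cultures.

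The members covered a wide range of levels per transcript length. In mRNA-seq wt, in TPM, the abundance scaled for transcript length, HSPA8 had 946 ± 47.8 (SD, n = 3), HSPD1 477 ± 24.7, HSP90AB1 244 ± 14.6, HSPE1 227 ± 18.9 and HSP90AA1 152 ± 13.0. HSPH1 had 60.1 ± 5.62, DNAJB1 15.3 ± 3.45 and HSPA5 10.4 ± 1.15. HSP90AB1 and HSPE1 overlapped between samples, and the other neighbours in this order did not. On chromatin the wt order was HSPA8 (548 ± 36.4 TPM, SD, n = 2), HSP90AB1 (231 ± 21.8), HSPD1 (176 ± 5.77), HSP90AA1 (145 ± 0.43), HSPA5 (58.4 ± 5.29), HSPE1 (30.6 ± 0.78), HSPH1 (21.5 ± 0.21) and DNAJB1 (12.8 ± 0.16), with no overlap between neighbours. HSPA5 was thus lowest of these 8 in mRNA-seq and in the middle on chromatin, and HSPE1 moved from close to HSP90AB1 to well below it. Copies of HSPE1 and a readthrough gene, counted apart from it, held 48.1 to 68.0% of the reads of its family on chromatin and 2.99 to 7.11% in mRNA-seq. Their part in this move was not tested.

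HSPA1A and HSPA1B were nearly absent from the transcripts that carry their names, with 0 to 70 estimated counts for HSPA1A and 0 to 44 for HSPA1B in any sample. The reason for caution is that a transcript without a gene name in the annotation, with the same length as HSPA1B-201 (2521 nt) and the only unnamed transcript of that length, held 1965 to 20867 counts. HSPA1A shares 76% of its 31-base words with other genes and HSPA1B 74.5%, most of them with each other. Copies of both genes, at 99.64 to 99.96% identity, were found on 4 alternate chromosome 6 contigs of the genome. Another 4 unnamed transcripts had the length of HSPA1A-201 (2483 nt), and none of them held more than 43.4 counts in a sample. HSPA1A-202 (1909 nt) held all reads of named HSPA1A in mRNA-seq, and 13 unnamed transcripts had its length. A transcript among these had the same counts as HSPA1A-202 in every sample, up to 8.38, and the one with most reads held 141 to 989 counts. The files name none of these transcripts, so their counts are not assigned to either gene. The counts of the transcript with the HSPA1B-201 length are given apart.

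**Figure D1:**
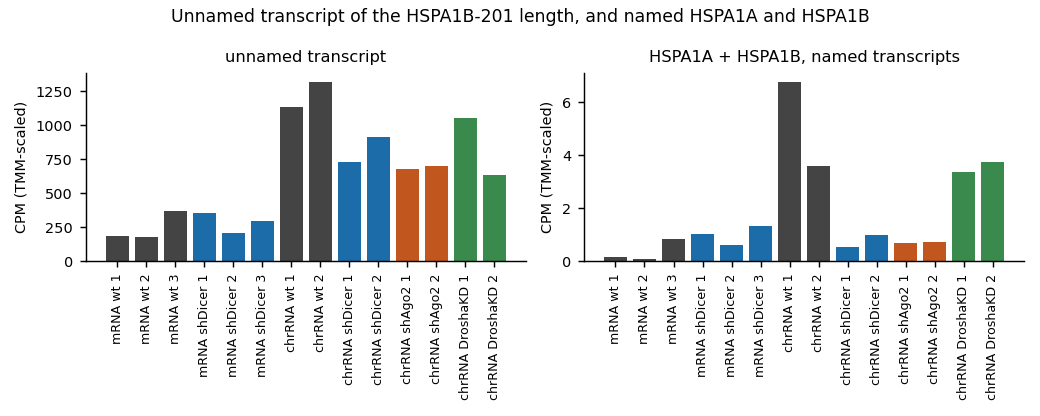
CPM scaled by TMM factors in each of the 14 samples, on linear axes that differ between panels: left, the unnamed transcript with the length of HSPA1B-201, right, the sum of the named HSPA1A and HSPA1B transcripts; bars are single samples coloured by group. The unnamed transcript lies at 175 to 367 CPM in mRNA-seq and 634 to 1318 CPM on chromatin, while the named transcripts stay under 7 CPM throughout.

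The unnamed transcript had 184, 175 and 367 CPM in mRNA-seq wt and 353, 206 and 296 CPM in shDicer. These groups overlapped, and the difference was 0.25 ± 0.31 on the log2 scale (edgeR adjusted p = 0.536). On chromatin it had 1132 and 1318 CPM in wt, 729 and 917 in shDicer, 679 and 703 in shAgo2 and 1055 and 634 in DroshaKD. All 6 knockdown samples lay below both wt samples, and no difference from wt passed its threshold, the nearest being shAgo2 (-0.81 ± 0.22, edgeR adjusted p = 0.0201). Named HSPA1A had 4.15 and 3.6 CPM in chromatin wt, 0.526 and 0.265 in shDicer, 0.688 and 0.709 in shAgo2 and 1.26 and 2.72 in DroshaKD. The fit called HSPA1A lower in shDicer (log2 fold change -3.27 ± 0.41, edgeR adjusted p = 6.33e-05) and in shAgo2 (-2.46 ± 0.37, edgeR adjusted p = 2e-04), but these rest on 5 to 70 counts a sample of a gene whose reads can be divided among copies. The unnamed transcripts of the HSPA1A-201 length are outside these values. Single ones held up to 16.1 counts in a chromatin wt sample, 18.7 in shDicer, 5.86 in shAgo2 and 43.4 in DroshaKD. Whether the HSPA1A calls hold with them added was not tested. HSPA1B was at 0 in both shAgo2 samples and in 1 wt sample, and was not called. It was called lower in shAgo2 without wt replicate 2, when the comparison rested on the 44 counts of the other wt sample.

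In mRNA-seq, no chaperone gene passed the test as higher in shDicer, and 3 fell: HSPH1, HSPE1 and HSPA8. The test covered 8 members, since HSPA1A and HSPA1B did not pass the filter on low counts, and the adjusted p threshold was 0.001. At that threshold 15.6% of 15056 genes were higher and 14.3% lower. At an unadjusted p under 0.05 edgeR gave 1 member higher and 6 lower, and DESeq2 called 0 higher and 6 lower, adding HSPA5, HSPD1 and HSP90AB1. HSPA1B, with 0 counts in each wt sample and 13, 0 and 17 in shDicer, was tested and called higher when shDicer replicate 2 was left out. The median log2 fold change of the 8 was -0.39, beside 0.01 for all genes tested. In 6 of 8 members every shDicer sample lay below every wt sample, as it did in 31.7% of all genes.

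HSPH1, the HSP110, had the largest change, with 348, 369 and 385 CPM in wt and 155, 194 and 185 in shDicer. No shDicer sample came near the lowest wt sample, and the log2 fold change was -1.05 ± 0.09 (SE, edgeR adjusted p = 3.34e-06). Its chromosomal surroundings also differed, as the 50 tested genes closest to HSPH1 had a median log2 fold change of -0.41. HSPE1, the HSP10 lid of the chaperonin, had 246, 257 and 256 CPM in wt and 141, 164 and 178 in shDicer. The groups did not overlap, and the log2 fold change was -0.65 ± 0.09 (edgeR adjusted p = 8.45e-05). HSPD1, which encodes its partner HSP60, had 1795, 1839 and 1859 CPM in wt and 1331, 1498 and 1473 in shDicer. Again every shDicer sample was lower, but at -0.35 ± 0.07 (edgeR adjusted p = 0.00135) the difference missed the threshold. Without shDicer replicate 1 it passed (-0.30, adjusted p = 0.000255).

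Both constitutive HSP70 genes had lower values in shDicer. HSPA8 had 3399, 3246 and 3418 CPM in wt and 2282, 2634 and 2271 in shDicer, and it fell by 0.49 on the log2 scale (SE 0.08, edgeR adjusted p = 0.000297). This call was lost without any single wt sample or without shDicer replicate 3 (adjusted p = 0.00125 to 0.00329), while the fold change stayed between -0.44 and -0.52 in those fits, and with counts rebuilt from TPM and transcript length (adjusted p = 0.00357). The 50 tested genes closest to HSPA8 had a median log2 fold change of -0.34. HSPA5 had 73.4, 84.8 and 76.0 CPM in wt and 55.9, 60.9 and 56.9 in shDicer, a difference of -0.43 ± 0.08 that missed the threshold (edgeR adjusted p = 0.00105). The 2 genes of cytosolic HSP90 did not move together: HSP90AB1 went from 1179 ± 30 to 959 ± 60.8 CPM (SD, n = 3), with an edgeR adjusted p of 0.00391, and HSP90AA1 from 673 ± 23.7 to 729 ± 53.8 CPM, with an edgeR adjusted p of 0.204. DNAJB1 had 54.2, 53.0 and 75.3 CPM in wt and 81.9, 76.5 and 81.9 in shDicer. Its shDicer samples were all above wt, though the difference of 0.40 ± 0.12 was not called (edgeR adjusted p = 0.0162). Without wt replicate 3, the highest wt sample, DNAJB1 was called higher, with a log2 fold change of 0.57 (edgeR adjusted p = 0.000615), and it was also called when no low-count filter was used (0.45).

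**Figure D2:**
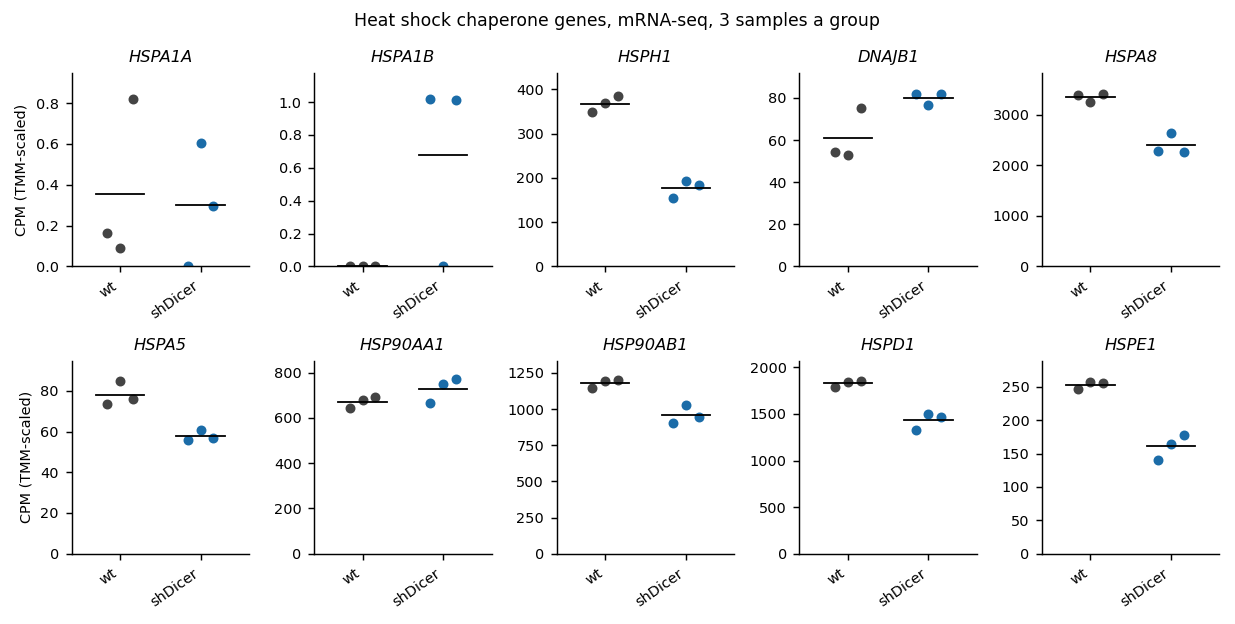
mRNA-seq levels of the 10 chaperone genes in CPM scaled by TMM factors (vertical axes from 0, 1 scale per gene), with points for the 3 wt and 3 shDicer samples and a line at each group mean. HSPH1, HSPE1, HSPA8, HSPA5, HSPD1 and HSP90AB1 show all 3 shDicer samples below the wt samples, DNAJB1 shows them above, and HSPA1A and HSPA1B are near 0.

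On chromatin, 3 of the 10 genes fell in shDicer (HSPH1, HSPA8 and the few named reads of HSPA1A) and none was called higher at an adjusted p under 0.005, where 11.2% of 32359 genes were higher and 10.7% lower. The shAgo2 samples had 6 genes lower (HSPH1, HSPA8, HSPA5, HSPD1, HSPE1 and HSPA1A) and 0 higher, beside 12.3% lower and 12.6% higher of all genes. DroshaKD had 1 lower, HSP90AA1, and 0 higher at an adjusted p under 0.05, beside 2.31% lower and 1.25% higher of all genes. No member was higher at an unadjusted p under 0.05 in edgeR, or called higher by DESeq2, in any of these 3 comparisons. For the 8 members other than HSPA1A and HSPA1B the median change on the log2 scale was -0.52 (shDicer), -0.78 (shAgo2) and -0.55 (DroshaKD), and that of all genes was under 0.01 in each. Every knockdown sample lay below both wt samples for 8 members in shDicer (34% of all genes), 9 in shAgo2 (36.2%) and 7 in DroshaKD (24.7%). The 3 comparisons share the same 2 wt samples, so their values stand side by side and are not independent. Without shDicer replicate 2, HSP90AB1 (-1.11) and HSPD1 (-0.73) also passed as lower in shDicer, which made 5. With transcripts that matched no current gene kept in the fit, HSPA8 missed the threshold in shDicer (adjusted p = 0.0212), and HSPA8, HSPA5, HSPD1 and HSPE1 missed it in shAgo2 (adjusted p = 0.00571 to 0.0205).

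**Figure D3:**
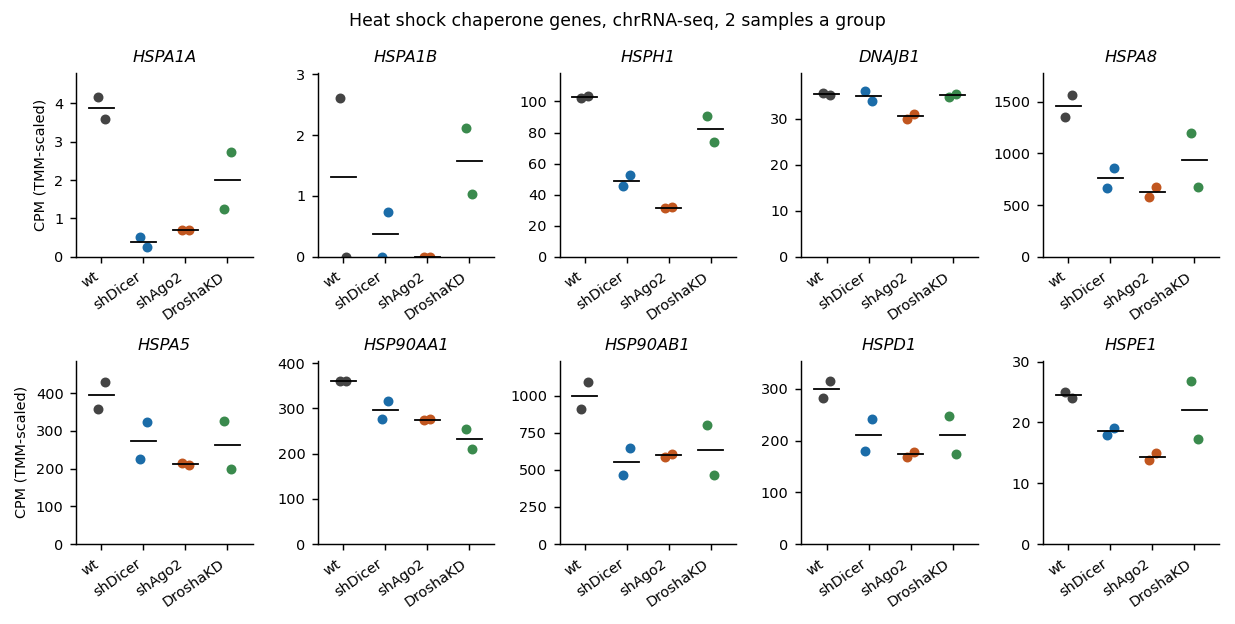
chrRNA-seq levels of the 10 chaperone genes in CPM scaled by TMM factors (vertical axes from 0, 1 scale per gene), with points for the 2 samples of each of the 4 groups and a line at each group mean. HSPH1 values separate the 4 groups, DNAJB1 stays between 30.0 and 36.0 CPM, and the 2 DroshaKD samples stand apart for HSPA8, HSPA5, HSP90AB1, HSPD1 and HSPE1.

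HSPH1 differed most clearly between the groups, with 102 and 104 CPM in chromatin wt, 45.6 and 52.5 in shDicer, 31.2 and 32.0 in shAgo2 and 90.6 and 73.8 in DroshaKD. The 4 groups did not overlap, in the order wt, DroshaKD, shDicer, shAgo2. Against wt the log2 fold change was -1.07 ± 0.10 in shDicer (edgeR adjusted p = 7.34e-06) and -1.70 ± 0.11 in shAgo2 (edgeR adjusted p = 1.77e-07). In DroshaKD it was -0.33 ± 0.10 and did not pass (edgeR adjusted p = 0.0962), and with counts rebuilt from TPM and transcript length it was 0.0032 (adjusted p = 0.995). Without DroshaKD replicate 1 it was called lower (-0.48, adjusted p = 0.0296). Tested directly, HSPH1 was higher in DroshaKD than in shDicer by 0.75 ± 0.10 (edgeR adjusted p = 0.000132) and than in shAgo2 by 1.38 ± 0.11 (edgeR adjusted p = 1.17e-06), and it was higher in shDicer than in shAgo2 by 0.63 ± 0.11 (edgeR adjusted p = 0.0033). The last call was lost without shDicer replicate 2 (adjusted p = 0.0188), without shAgo2 replicate 1 (adjusted p = 0.0474) or replicate 2 (adjusted p = 0.039), with counts rebuilt from TPM (adjusted p = 0.00726) and with unmatched transcripts kept (adjusted p = 0.0183). Only 0.282% of the 31-base words of HSPH1 occur in other genes, the least of the 10. The 50 tested genes closest to it had medians of -0.30 (shDicer), -0.21 (shAgo2) and 0.17 (DroshaKD) on the log2 scale.

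DNAJB1, the J-domain partner of the inducible HSP70, had 35.5 and 35.2 CPM in chromatin wt, 36.0 and 33.7 in shDicer, 30.0 and 31.1 in shAgo2 and 34.7 and 35.4 in DroshaKD. The shDicer and DroshaKD samples overlapped wt, and the shAgo2 samples lay just below. The log2 fold changes were -0.02 ± 0.08, -0.21 ± 0.08 and -0.01 ± 0.08, and none passed. HSPH1 and DNAJB1, both inducible by heat, thus differed in their values in the same samples.

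HSPA8 had 1351 and 1564 CPM in chromatin wt, 666 and 856 in shDicer, 578 and 670 in shAgo2 and 1194 and 677 in DroshaKD. It fell in shDicer by 0.94 on the log2 scale (SE 0.21, edgeR adjusted p = 0.00369) and in shAgo2 by 1.22 (SE 0.21, edgeR adjusted p = 0.000559). The shDicer call was lost in DESeq2 (adjusted p = 0.0201), without either wt sample and without shDicer replicate 1, with fold changes of -0.77 to -1.04 in the fits that left a sample out. The shAgo2 call was lost without wt replicate 2 (adjusted p = 0.0073) and without shAgo2 replicate 1 (adjusted p = 0.0118). The 50 tested genes closest to HSPA8 had medians of -0.04 and -0.06 on the log2 scale there. HSPA5, the HSP70 of the ER, had 359 and 430 CPM in wt, 226 and 322 in shDicer, 215 and 209 in shAgo2 and 326 and 198 in DroshaKD. All knockdown samples were lower than both wt samples, yet only shAgo2 passed (-0.90 ± 0.20, edgeR adjusted p = 0.00369), and that call was lost in DESeq2 (adjusted p = 0.0223) and without any 1 of the 4 samples (adjusted p = 0.00956 to 0.0383). Among the 50 tested genes closest to HSPA5 the median was -0.46 on the log2 scale in shDicer, -0.55 for shAgo2 and 0.01 for DroshaKD, and the part of the surroundings in the result was not tested.

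Both cytosolic HSP90 genes lay below wt in every knockdown sample on chromatin, and 1 of the 6 differences passed. HSP90AA1 had 361 and 360 CPM in chromatin wt, 277 and 316 in shDicer, 275 and 276 in shAgo2 and 254 and 211 in DroshaKD. The DroshaKD samples were lowest. The fall in DroshaKD was 0.63 on the log2 scale (SE 0.10, edgeR adjusted p = 0.00736), while shDicer (-0.28 ± 0.10, edgeR adjusted p = 0.0376) and shAgo2 (-0.39 ± 0.10, edgeR adjusted p = 0.00679) missed their stricter threshold of 0.005. The shAgo2 difference passed in DESeq2 (adjusted p = 0.00203), with library size scaling (adjusted p = 0.00324), without a low-count filter (adjusted p = 0.00137) and in the fit of 2 groups (adjusted p = 2e-05). Set directly against shDicer, DroshaKD differed by -0.35 ± 0.10 (edgeR adjusted p = 0.014) and was not called. The DroshaKD call was lost without wt replicate 1 (adjusted p = 0.088), without wt replicate 2 (adjusted p = 0.0738) and with counts rebuilt from TPM and transcript length (-0.41, adjusted p = 0.0604). HSP90AB1 had 907 and 1092 CPM in wt, 462 and 649 in shDicer, 587 and 608 in shAgo2 and 803 and 463 in DroshaKD. The ranges of the 3 knockdowns overlapped each other, with log2 fold changes of -0.85 ± 0.21, -0.74 ± 0.21 and -0.66 ± 0.21 that did not pass. Without a low-count filter all 3 passed (adjusted p = 0.000396, 0.00117 and 0.0251), and in fits of 2 groups so did shDicer (adjusted p = 0.00107) and shAgo2 (adjusted p = 2.06e-07). The 50 tested genes closest to HSP90AB1 had medians of -0.35, 0.06 and -0.07 on the log2 scale in these comparisons.

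The mitochondrial pair, which is transcribed in opposite directions from neighbouring start sites on chromosome 2, was called lower in shAgo2. Neither gene was called in the direct comparisons of the knockdowns, with adjusted p of 0.325 for HSPD1 and 0.204 for HSPE1 between shDicer and shAgo2 and of 0.188 and 0.0113 between DroshaKD and shAgo2. HSPD1 had 283 and 315 CPM in wt, 180 and 241 in shDicer, 169 and 179 in shAgo2 and 247 and 174 in DroshaKD. Its fold changes were -0.51 ± 0.16, -0.78 ± 0.16 and -0.50 ± 0.16 on the log2 scale, and the shAgo2 value passed (edgeR adjusted p = 0.00169), although not in DESeq2 (adjusted p = 0.0063) or without any 1 of its 4 samples. Without a low-count filter HSPD1 was also called lower in shDicer (adjusted p = 0.00428) and DroshaKD (adjusted p = 0.0269). HSPE1 had 25.0 and 24.0 CPM in wt, 18.0 and 19.1 in shDicer, 13.8 and 15.0 in shAgo2 and 26.8 and 17.3 in DroshaKD. The shAgo2 samples were lowest (-0.77 ± 0.17, edgeR adjusted p = 0.00261), and the DroshaKD samples lay on either side of wt. HSPE1 has many copies, which with a readthrough gene held 48.1 to 68.0% of the reads of the family on chromatin and 2.99 to 7.11% in mRNA-seq. With these copies added to HSPE1, the shAgo2 difference was -0.17 (adjusted p = 0.128), and leaving out any 1 of the 4 samples also ended the call (adjusted p = 0.0139 to 0.0322).

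**Figure D4:**
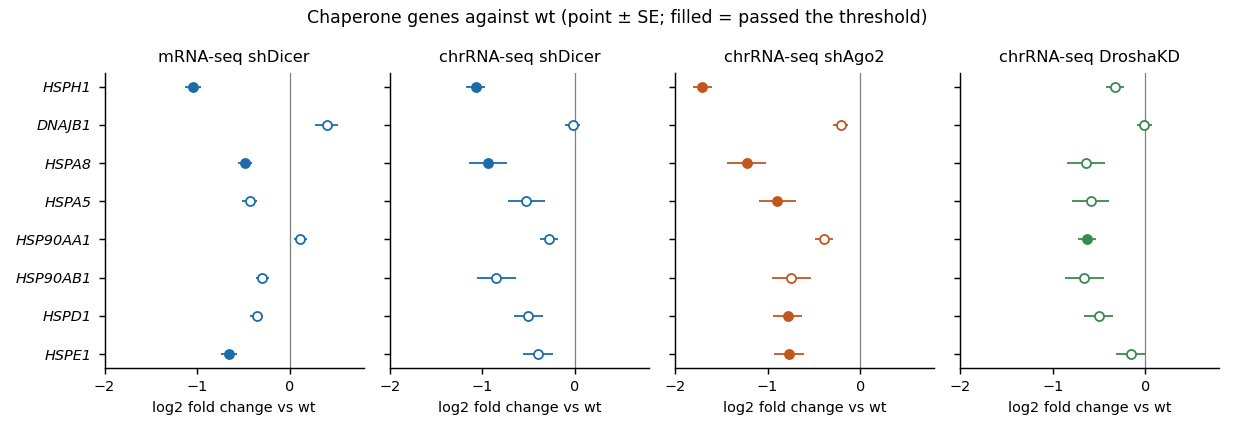
log2 fold change against wt (horizontal axis, with SE bars) of 8 chaperone genes in the 4 comparisons, filled where the adjusted p passed that comparison's threshold (0.001, 0.005, 0.005 and 0.05 from left to right); HSPA1A and HSPA1B are not drawn. Nearly all points lie left of 0, except DNAJB1 (0.40) and HSP90AA1 (0.12) in mRNA-seq, and HSPH1 in shAgo2 lies farthest left at -1.70.

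The 2 DroshaKD samples differed from each other more than replicates of the other groups did for several members. HSPA8 had 1194 and 677 CPM there, HSP90AB1 803 and 463, HSPA5 326 and 198 and HSPE1 26.8 and 17.3, each with replicate 1 the higher. HSPH1, DNAJB1 and HSP90AA1 were closer between these samples. The members together took 0.292% and 0.194% of the reads in these 2 samples, compared with 0.338% and 0.380% in wt, 0.196% and 0.246% in shDicer and 0.191% and 0.201% in shAgo2. Messages encoded by the mitochondrial genome took a larger share in the knockdowns, 0.433% and 0.465% in chromatin wt, 0.633% and 0.540% in shDicer, 0.723% and 0.729% in shAgo2 and 0.546% and 0.577% in DroshaKD. In mRNA-seq that share was 0.152 to 0.163% in wt and 0.216 to 0.273% in shDicer, where the members took 0.761 to 0.806% and 0.553 to 0.625%. Its part in the chaperone results was not tested. Without DroshaKD replicate 1, 6 members were called lower and 0 higher, without replicate 2, 2 were lower (HSP90AA1 and HSPA1A), and leaving out either wt sample left 0 (edgeR). Across all genes the replicate pairs differed by 7.27 times the counting variance in DroshaKD, 6.6 times in shDicer, and 2.41 and 2.38 times in wt and shAgo2.

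In direct comparisons between knockdowns, HSPH1 and HSPA1A accounted for every call. DroshaKD against shDicer gave 2 members higher (HSPH1 and HSPA1A) and 0 lower, beside 9.7% and 11.1% of all genes, and DroshaKD against shAgo2 gave 1 higher and 0 lower (10.5% and 11.7%). The comparison of shDicer with shAgo2 gave 1 higher and 0 lower (1.43% and 1.38%). HSPA1A in DroshaKD was 2.32 ± 0.45 above shDicer on the log2 scale (edgeR adjusted p = 0.00164), again from 5 to 50 counts a sample. This call left out the unnamed transcripts of the HSPA1A-201 length. That call was lost without shDicer replicate 2 (adjusted p = 0.0165) and without DroshaKD replicate 2 (adjusted p = 0.0179). At an unadjusted p under 0.05 edgeR gave 3, 7 and 3 of the 10 members in these comparisons.

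For 5 members, a part of the RNA on chromatin that differed between genes was assigned to transcripts annotated with a retained intron, which are not complete messages. HSPA1A, HSPA1B, HSPA5, HSP90AB1 and DNAJB1 have no transcript annotated in this class. Such transcripts held 54.9 to 78.9% of the HSPE1 reads on chromatin and 0.501 to 1.31% in mRNA-seq. For HSPA8 the shares were 21.8 to 37.7% and 1.93 to 4.49%, for HSPD1 23.4 to 32.5% and 2.97 to 4.31%, for HSPH1 21.9 to 36.2% and 3.90 to 5.49%, and for HSP90AA1 10.8 to 17.9% and 0.404 to 1.22%. These 5 members were therefore also fitted by class, a step added after the gene values were seen, with 49038 features on chromatin and 23906 in mRNA-seq.

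HSPH1 fell in both classes. In retained-intron transcripts it had 24.8 and 25.1 CPM in wt, 10.6 and 11.8 in shDicer, 6.83 and 8.13 in shAgo2 and 31 and 26.7 in DroshaKD. These gave -1.14 ± 0.13 in shDicer (edgeR adjusted p = 0.000122) and -1.72 ± 0.13 in shAgo2 (edgeR adjusted p = 1e-05), next to -1.09 ± 0.14 and -1.56 ± 0.14 in coding transcripts. DroshaKD was above wt in retained-intron transcripts (0.22 ± 0.12, edgeR adjusted p = 0.404) and below it in coding ones (-0.40 ± 0.14, edgeR adjusted p = 0.184), and neither passed. HSPA8 in retained-intron transcripts had 313 and 341 CPM in wt, 219 and 189 in shDicer, 160 and 171 in shAgo2 and 365 and 255 in DroshaKD. It fell in shAgo2 (-0.96 ± 0.15, edgeR adjusted p = 0.000809), and not in shDicer (-0.66 ± 0.15, edgeR adjusted p = 0.00698), and DroshaKD spanned the wt values (-0.07 ± 0.15). In coding transcripts HSPA8 passed in none of the 3, with -0.996 ± 0.28 in shDicer (edgeR adjusted p = 0.0204), -1.28 ± 0.28 in shAgo2 (edgeR adjusted p = 0.00553) and -0.84 ± 0.28 in DroshaKD. HSPD1 fell in shAgo2 in retained-intron transcripts (-0.68 ± 0.12, edgeR adjusted p = 0.0016), while its coding transcripts did not pass (-0.78 ± 0.20, edgeR adjusted p = 0.0142), and neither class passed in shDicer or DroshaKD. HSPE1 passed in neither class in any comparison, and its shAgo2 values were -0.70 ± 0.32 in coding and -0.77 ± 0.21 in retained-intron transcripts. HSP90AA1 in DroshaKD was lower in coding transcripts (-0.74 ± 0.13, edgeR adjusted p = 0.0361), and in retained-intron transcripts it was at -0.16 ± 0.13 (edgeR adjusted p = 0.593). The median of all genes was between -0.08 and 0.02 on the log2 scale in either class on chromatin. In mRNA-seq it was 0.16 in coding and -0.27 in retained-intron transcripts. There HSPH1 was called lower in both classes (-0.83 ± 0.11 and -1.22 ± 0.16). HSPE1 was called lower in coding (-0.55 ± 0.07) and HSPD1 in retained-intron transcripts (-0.685 ± 0.08). HSPA8 passed in neither class, with -0.405 ± 0.06 in coding transcripts (edgeR adjusted p = 0.00182), and nor did HSP90AA1.

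**Figure D5:**
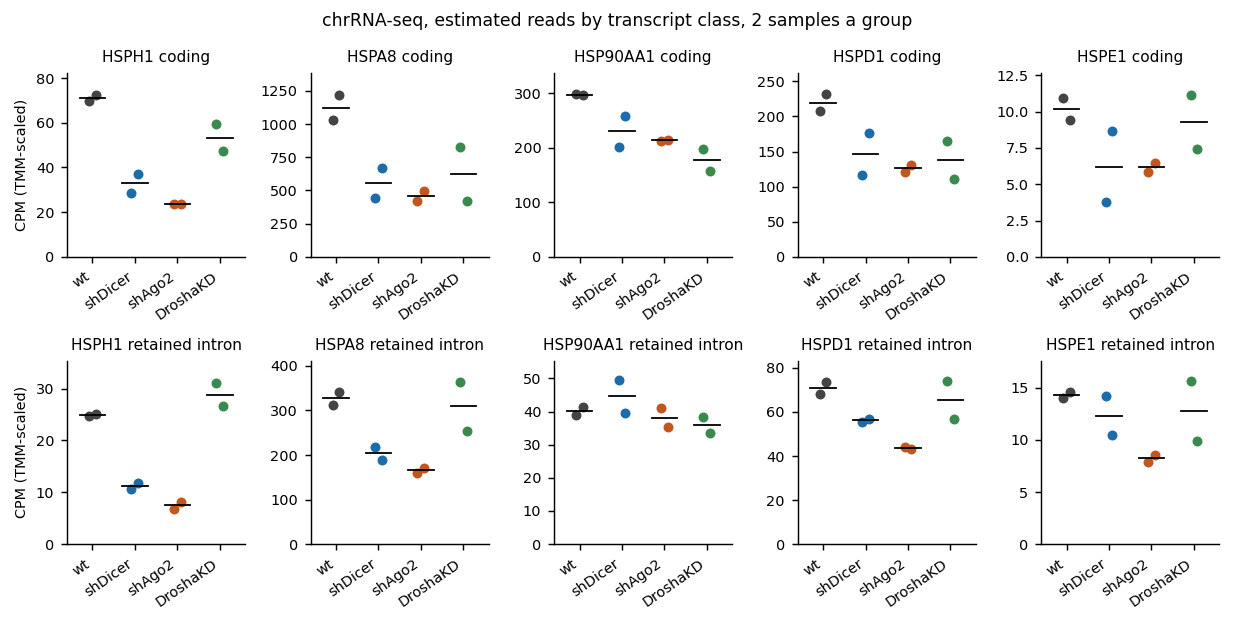
chrRNA-seq CPM (vertical axes from 0, 1 scale per panel) of 5 chaperone genes by transcript class, coding above and retained intron below, with points for the 2 samples of each group and a line at the mean. HSPH1 and HSPA8 are lower in shDicer and shAgo2 in both rows, while HSP90AA1 retained-intron reads lie between 33.5 and 49.6 CPM in all groups.

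No heat shock factor passed the test as higher in any comparison with wt. HSF1, the main activator of these genes, had 54.3 and 52.0 CPM in chromatin wt, 35.2 and 31.9 in shDicer, 31.4 and 31.5 in shAgo2 and 46.7 and 49.2 in DroshaKD. It fell in shDicer (-0.66 ± 0.08, edgeR adjusted p = 5.61e-05) and in shAgo2 (-0.76 ± 0.08, edgeR adjusted p = 1.72e-05), and the DroshaKD value did not pass (-0.15 ± 0.08, edgeR adjusted p = 0.345). In mRNA-seq HSF1 RNA was 9.42 to 10.9 CPM in wt and 6.73 to 12.3 in shDicer, which overlapped. There HSF2 (-0.54 ± 0.07) and HSBP1, whose product binds HSF1 (-0.76 ± 0.07), passed the threshold as lower. The HSF2 call was lost without wt replicate 1 or 2 (adjusted p up to 0.00141). The 5 listed genes were the factors HSF1, HSF2, HSF4 and HSF5, and HSBP1, which is not itself a factor. Against wt edgeR gave 0 of them higher also at an unadjusted p under 0.05, as DESeq2 did at the adjusted thresholds. In mRNA-seq 2 of 3 tested were lower, HSF2 and HSBP1. On chromatin 2 of 5 were lower in shDicer, 2 of 5 in shAgo2 and 1 of 5, HSF4, in DroshaKD. Of all genes 14.3%, 10.7%, 12.3% and 2.31% were lower in these comparisons. The HSF4 calls were each lost without 3 or 4 of the 4 samples left out in turn (adjusted p up to 0.227 in DroshaKD).

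A list of 18 further genes of the acute heat shock response was counted in the same way. This list and those below share genes, so their counts are not of separate genes. DNAJA1, CHORDC1, FKBP4, STIP1 and AHSA1, for example, are also listed among the co-chaperones. HYOU1 and DNAJC3 are also in the list of the ER response, and TRAP1 and DNAJA3 in that of mitochondrial proteostasis. In mRNA-seq 2 of 16 tested were higher and 2 lower, in chromatin shDicer 1 of 17 higher and 5 lower, in shAgo2 2 higher and 7 lower and in DroshaKD 2 higher and 4 lower. The shares of all genes were 15.6% higher and 14.3% lower in mRNA-seq, 11.2% and 10.7% in chromatin shDicer, 12.6% and 12.3% in shAgo2 and 1.25% and 2.31% in DroshaKD. DESeq2 called 3 higher and 3 lower, 1 and 5, 2 and 7, and 1 and 4. STIP1, which links HSP70 to HSP90, had 334, 340 and 346 CPM in mRNA-seq wt and 182, 177 and 170 in shDicer (-0.95 ± 0.06, edgeR adjusted p = 6.41e-07). On chromatin it fell by 1.09 in shDicer, by 1.36 in shAgo2 and by 0.57 in DroshaKD on the log2 scale. The DroshaKD call was lost without either wt sample, without DroshaKD replicate 2 (adjusted p = 0.066 to 0.154), with counts rebuilt from TPM (adjusted p = 0.165) and with unmatched transcripts kept (adjusted p = 0.074). CHORDC1, an HSP90 co-chaperone, went from 175 to 192 CPM in mRNA-seq wt to 49.7 to 56.4 in shDicer (-1.75 ± 0.08). RGS2, a regulator of G-protein signalling, was the gene of this list with the largest rise on chromatin, at 1.60 ± 0.30 in shDicer and 1.89 ± 0.30 in shAgo2. Without wt replicate 1 neither RGS2 call held, nor did the shDicer call without shDicer replicate 2 (adjusted p up to 0.0239).

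HSPA6 is an HSP70 gene that most cells express only under strong stress. On chromatin it had 0.949 and 1.07 CPM in wt, 1.05 and 1.85 in shDicer, 1.18 and 1.09 in shAgo2 and 3.37 and 2.50 in DroshaKD. Both DroshaKD samples were above all others, and the difference from wt was 1.53 ± 0.32 on the log2 scale (edgeR adjusted p = 0.0238). DESeq2 did not call it, and the edgeR call was lost without either wt sample or DroshaKD replicate 1 (adjusted p = 0.116 to 0.199), with counts rebuilt from TPM (adjusted p = 0.0511) and with unmatched transcripts kept (adjusted p = 0.0702). In mRNA-seq it had 0.406, 1.16 and 7.47 CPM in wt and 0.238 to 0.705 in shDicer, so 1 wt sample stood far above the rest. DNAJB4, a J-domain protein of the DNAJB1 type, was also higher in DroshaKD, with 31.3 and 30.7 CPM against 21.4 and 22.5 in wt (0.50 ± 0.09, edgeR adjusted p = 0.0149). This call too was lost without either wt sample or DroshaKD replicate 1 (adjusted p = 0.0532 to 0.168). HSPB1 (small heat shock protein 27) was at 9.99 and 9.64 in DroshaKD against 8.96 and 8.53 CPM in wt, and BAG3 (an HSP70 exchange factor) at 35.1 and 33.2 against 32.9 and 35.1 CPM, and neither was called. The inducible genes DNAJA1, a J-domain partner (-0.52 ± 0.11), and SERPINH1, the collagen chaperone HSP47 (-0.62 ± 0.09), fell in DroshaKD. Both calls were lost without either wt sample, and that of DNAJA1 also without DroshaKD replicate 2 (adjusted p up to 0.207 and 0.0848). These 4 genes were chosen after their values were seen.

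HSPA2, an HSP70 gene best known from the testis, was higher in shDicer and shAgo2. It had 2.05 to 2.49 CPM in mRNA-seq wt and 17.7 to 20.4 in shDicer (3.12 ± 0.16, edgeR adjusted p = 7.46e-08). On chromatin it had 9.61 and 9.73 CPM in wt, 54.0 and 64.0 in shDicer, 60.4 and 60.6 in shAgo2 and 11.2 and 9.36 in DroshaKD. It rose in shDicer (2.61 ± 0.12) and shAgo2 (2.64 ± 0.12), and the DroshaKD samples spanned the wt values. All 3 HSPA2 calls held without any 1 sample. HYOU1, the large HSP70 of the ER, fell in mRNA-seq shDicer (-0.65 ± 0.08) and on chromatin in shDicer (-0.81 ± 0.10), shAgo2 (-1.28 ± 0.10) and DroshaKD (-1.02 ± 0.10). The mRNA-seq call was lost without wt replicate 1 (adjusted p = 0.0012), and the 3 chromatin calls held without any 1 sample. Of the 11 further HSP70 and HSP110 genes, 2 of 8 tested were higher and 3 lower in mRNA-seq, beside 15.6% and 14.3% of all genes. On chromatin 1 of 10 was higher and 1 lower in each comparison with wt. In shDicer and shAgo2 this is close to the share of all genes (11.2% and 12.6% higher, 10.7% and 12.3% lower). In DroshaKD 1.25% of all genes were higher and 2.31% lower. DESeq2 called 0 of the 10 higher in DroshaKD and 2 lower in chromatin shDicer.

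Of the genes of the unfolded protein response of the ER, edgeR called 0 higher against wt, with 4, 1, 0 and 2 higher at an unadjusted p under 0.05 in mRNA-seq, chromatin shDicer, shAgo2 and DroshaKD, and DESeq2 called 1 higher, in mRNA-seq. Of 20 tested, 5 fell in mRNA-seq, 5 in chromatin shDicer, 4 in shAgo2 and 2 in DroshaKD, with medians of -0.18, -0.15, -0.28 and -0.13, where 14.3%, 10.7%, 12.3% and 2.31% of all genes were lower. DESeq2 called 7, 3, 4 and 1 lower. XBP1, a transcription factor of this response, fell in mRNA-seq (-1.09 ± 0.12) and on chromatin in shDicer (-0.90 ± 0.14) and shAgo2 (-0.71 ± 0.14), and HERPUD1, an ER degradation factor, fell in mRNA-seq (-0.96 ± 0.11). The chromatin XBP1 calls were lost without wt replicate 2, and in shAgo2 also without either shAgo2 sample (adjusted p up to 0.024).

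The counts of the other folding machines are to be read beside the shares of all genes, 15.6% higher and 14.3% lower in mRNA-seq, 11.2% and 10.7% in chromatin shDicer, 12.6% and 12.3% in shAgo2 and 1.25% and 2.31% in DroshaKD. The TRiC chaperonin of the cytosol, with 8 subunits, had 0 higher in any comparison with wt and 3 lower in mRNA-seq (CCT8 -0.68 ± 0.07, TCP1 -0.55 ± 0.07 and CCT6A -0.36 ± 0.07), 2 in chromatin shDicer, 2 in shAgo2 and 2 in DroshaKD. At an unadjusted p under 0.05 edgeR had 1 TRiC gene higher in mRNA-seq and 0 on chromatin, and DESeq2 called 0 higher. CCT6A was no longer called without any 1 wt sample or shDicer replicate 3 (adjusted p up to 0.00797). CCT3 fell in all 3 chromatin comparisons, by 0.74, 0.97 and 0.66 on the log2 scale, and its shDicer and DroshaKD calls were lost without 3 of 4 samples left out in turn, both wt samples among them (adjusted p up to 0.0137 and 0.168). Of 23 J-domain co-chaperones, 2 were higher and 6 lower in mRNA-seq, 0 and 8 in chromatin shDicer (4 higher at an unadjusted p under 0.05, 0 in DESeq2), 2 and 7 in shAgo2 and 2 and 3 in DroshaKD (1 and 3 in DESeq2). DNAJC5, a J-domain protein of synaptic vesicles, fell most on chromatin in shDicer (-1.07 ± 0.09) and in shAgo2 (-1.42 ± 0.09), and DNAJB2 rose most in mRNA-seq (1.15 ± 0.16), a call lost without wt replicate 1 (adjusted p = 0.00177). Of 18 HSP90 and HSP70 co-chaperones, 3 were higher and 5 lower in mRNA-seq, 0 and 6 in chromatin shDicer, 1 and 9 in shAgo2 and 0 and 4 in DroshaKD. Where none of these was higher, 1 was at an unadjusted p under 0.05 in shDicer and 2 in DroshaKD, and DESeq2 called 0 in both. Of 11 genes of mitochondrial proteostasis, 2 were higher and 1 lower in mRNA-seq, 1 and 5 in chromatin shDicer, 0 and 5 in shAgo2 and 0 and 1 in DroshaKD, where an unadjusted p under 0.05 gave 1 higher in shAgo2 and 0 in DroshaKD and DESeq2 called 0. GRPEL1, the exchange factor of the mitochondrial HSP70, fell in mRNA-seq (-1.16 ± 0.08) and on chromatin in shDicer (-0.75 ± 0.11) and shAgo2 (-0.91 ± 0.11), and without wt replicate 2 the chromatin shDicer call was lost (adjusted p = 0.00531). TRAP1, the mitochondrial HSP90, fell in all 3 chromatin comparisons, by 0.55, 0.77 and 0.34 on the log2 scale, but the DroshaKD call was lost without any 1 of the 4 samples (adjusted p up to 0.257). Of 9 small heat shock proteins, 2 were tested in mRNA-seq, where edgeR called HSPB8 lower (-1.81 ± 0.30), a call that DESeq2 did not make and that was lost without 5 of the 6 samples left out in turn, all but wt replicate 2 (adjusted p up to 0.00424). Of 4 tested on chromatin none was called against wt by edgeR or DESeq2. At an unadjusted p under 0.05 edgeR had 1 higher and 1 lower in shDicer, 0 in shAgo2 and 1 higher in DroshaKD. Between knockdowns, edgeR called HSPB8 higher in DroshaKD than in shDicer (2.35 ± 0.37) and than in shAgo2 (2.01 ± 0.36). Of all genes 9.7% and 10.5% were higher in these 2 comparisons.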

How the data were processed

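mRNA-seq (6 samples) and chrRNA-seq (8 samples) were used, and 6 small RNA samples were not analysed here. Per the labels and methods, the authors ran kallisto against Ensembl release 89 cDNA and non-coding RNA, stranded. They deposited an estimated count per transcript, not normalized, and a TPM scaled for effective length. Labels name polyA RNA for mRNA-seq, the methods ribosomal RNA depletion. Transcripts were matched by identifier to GENCODE 44 (GRCh38), 193697 of 217082 (89.2%, with 93.4 to 94.8% of counts), and counts were summed per symbol and rounded. edgeR 4.0.16 (R 4.3.3, filterByExpr, TMM, quasi-likelihood, Benjamini-Hochberg over 15056 or 32359 genes) was fitted by group, 1 fit per assay. Thresholds against wt were those of the study, 0.001 in mRNA-seq, 0.005 for shDicer and shAgo2 on chromatin, and 0.05 for DroshaKD. The study gives none between knockdowns, where its stricter chromatin threshold of 0.005 was used. SE is the fold change over the root of F. Reads shared between copies are divided by kallisto, so the values of near-identical genes are uncertain. The procedure was checked on simulated data.

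The members and gene lists were chosen with earlier results of these data known. All 10 members are given for each comparison, and for each further list the counts with up to 3 called genes of the largest change, HSPB1, BAG3, DNAJA1, SERPINH1 and the fit by transcript class being added after the values were seen, as were the genes around a member. Alternatives were library size scaling, DESeq2 1.42.0, no filter, other thresholds, counts rebuilt from TPM, unmatched transcripts kept, copies merged, 2-group fits, a replicate block and leaving out each sample.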

Additional observations from a re-analysis of the deposited data

Results flagged for a closer look

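The knockdowns differed from each other in HSPH1, by 0.75 on the log2 scale between DroshaKD and shDicer, by 1.38 between DroshaKD and shAgo2, and by 0.63 between shDicer and shAgo2, each tested directly with edgeR. The last of these calls was lost without shDicer replicate 2 (adjusted p = 0.0188) or either shAgo2 sample (adjusted p = 0.0474 and 0.039). In HSPA1A, DroshaKD was above shDicer by 2.32 on the log2 scale, from 5 to 50 counts a sample, a call lost without replicate 2 of shDicer (adjusted p = 0.0165) or of DroshaKD (adjusted p = 0.0179). A transcript that the annotation does not name, with the length of HSPA1B-201, held at least 1965 counts in every sample and is outside the comparisons of named genes.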

How the results depend on the processing

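Direction and side of the threshold against wt were the same under every alternative run for HSPH1 and HSPE1 lower in mRNA-seq, and for HSPH1 and HSPA1A lower in chromatin shDicer and shAgo2. No alternative added the unnamed transcripts of the HSPA1A-201 length to HSPA1A. The counts of chaperone genes varied more, and the cause was not tested. In mRNA-seq shDicer, genes lower were 6 (3 in the report) in DESeq2, without a low-count filter and at an adjusted p under 0.05, and 1 with a fold change beyond 1 on the log2 scale. Genes higher there were 2 without a filter and 1 at 0.05. On chromatin, genes lower in shDicer (3 in the report) were 5 without a filter and 6 at 0.05. In shAgo2 (6 in the report) they were 9 at 0.05, 8 without a filter, 7 with library size scaling, 3 beyond a log2 fold change of 1 and 2 with unmatched transcripts kept. In DroshaKD (1 in the report) they were 5 without a filter and 0 beyond a log2 fold change of 1 or with counts rebuilt from TPM. For DroshaKD against shDicer, genes lower were 1 rather than 0 with library size scaling, without a filter and at 0.05, and genes higher were 1 rather than 2 beyond a log2 fold change of 1, with unmatched transcripts kept and in the fit of 2 groups. For DroshaKD against shAgo2, genes higher (1 in the report) were 4 without a filter, 5 at 0.05, and 2 with copies merged or in the fit of 2 groups. For shDicer against shAgo2, genes higher were 0 rather than 1 beyond a log2 fold change of 1, with counts rebuilt from TPM, with unmatched transcripts kept and with the replicate block. Leaving out 1 sample at a time gave 0 to 1 higher and 2 to 4 lower in mRNA-seq, 2 to 5 lower in shDicer, 2 to 3 in shAgo2 and 0 to 6 in DroshaKD, 1 to 3 higher and 0 to 1 lower for DroshaKD against shDicer, 1 to 3 higher for DroshaKD against shAgo2 and 0 to 1 for shDicer against shAgo2. The replicate numbers did not pair the samples, since same-numbered deviations correlated at 0.045 to 0.084 in mRNA-seq and at -0.135 to 0.03 on chromatin. The replicate block kept every other count within 1.5 times. With the DroshaKD numbers crossed, added after seeing the data for the correlation of -0.135, the block gave 6 lower in shDicer, 7 in DroshaKD, 1 for DroshaKD against shDicer and 4 higher for DroshaKD against shAgo2. Signs turned for 4 genes. DNAJB1 was at 0.023 in shDicer and 0.0402 in DroshaKD with library size scaling, and leaving out 1 sample gave -0.066 to 0.023 in shDicer and -0.033 to 0.0036 in DroshaKD. HSPE1 in DroshaKD ranged from -0.50 to 0.12 without 1 sample, and HSPH1 in DroshaKD was at 0.0032 with counts rebuilt from TPM. HSPA1B, with few counts and groups at 0 whose fitted fold depends on the prior count, ranged from -7.59 to 5.79 in shDicer, -8.60 to 0 in shAgo2 and -0.73 to 7.85 in DroshaKD. With 2 samples a group on chromatin, few members held a call when 1 was left out, and counts under the floor limit HSPA1A and HSPA1B.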
